A study of Mus musculus with 32 samples.

Results

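The comparison described here asks what 9 further days of rest did to the cardiac response of mice stressed for 5 days. It covers 16 of the series' 32 hearts, 1 array per mouse, in 4 groups of 4 C57BL/6 mice. Stressed mice spent 6 hours a day for 5 days caged, inside a wire mesh box, with an aggressor that was also let attack them, and then rested for 1 day or for 10 days. Controls were kept in the same kind of box without an aggressor, and each rest had control mice of its own. The model uses one mouse strain and whole heart RNA, and nothing was measured in the same animal at both times. Each stress effect is the mean of 4 stressed hearts minus the mean of the 4 controls of that rest, on a log2 scale on which 1 is a doubling. The quantity of interest is the effect after 10 days minus the effect after 1 day, called the change over rest below. The 4 groups are written as 1-day and 10-day controls and stressed hearts.

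Hearts under load or injury typically show a short period in which non-muscle cells divide, macrophages gather and fibroblasts lay down collagen. Cell division programmes are switched on and off through the cell cycle, whereas deposited collagen is turned over slowly and its genes may be expressed long after an insult. Adult heart muscle cells divide little and make most of their energy by burning fatty acids in mitochondria.

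The 75th percentile signal of the 16 arrays, to which all levels are relative, lay between 302.3 and 498.9, and 28792 to 40672 probes per array were well above background. Arrays of a group correlated at 0.9821 to 0.9943. Heart muscle markers (Myh6, Tnnt2, Actc1, Myl2 and Tnni3) were above background on 16 of 16 arrays, at or above the 99.8th percentile of probes. The skeletal muscle myosin Myh1 and the thymocyte gene Rag1 were above background on 0 of 16. The lung surfactant gene Sftpc was above background on 3 of 16 arrays, all of them 1-day controls, at up to 3.94, and the fat cell hormone Adipoq ranged from -2.15 to 2.48. The 8 arrays of each rest shared a slide, and on each slide the controls lay in 2 columns and the stressed hearts in the others. Slide and rest, and array column and stress, therefore cannot be told apart, and each effect is taken within a slide. The scanner software marked 3 arrays for evaluation, all of 10-day hearts: control 4 and stressed 1 and 2. In bulk RNA, fewer cells of a type and less RNA per cell cannot be told apart.

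Over 27532 genes, fewer stress effects were called after 10 days of rest than after 1 day, by a margin that hung on single hearts. After 1 day, 3778 genes passed limma's test at an adjusted p below 0.05 (13.7%), 1458 higher (5.3%) and 2320 lower (8.43%) in stressed hearts. After 10 days, 21 did (0.0763%), 6 higher (0.0218%) and 15 lower (0.0545%). Leaving out 1 heart gave 5 to 606 such late calls (606 without 10-day stressed 2 and 136 without stressed 1), with 1088 without the 3 marked arrays and 0 when the 16 arrays were fitted alone or with replicate number as a block. At an unadjusted p below 0.05 there were 3843 (14%), 1786 higher (6.49%) and 2057 lower (7.47%), and 46.1% of all genes were measured higher and 53.9% lower. The change over rest itself passed for 686 genes (2.49%): 326 moved up (1.18%) and 360 moved down (1.31%) from the effect of 1 day to that of 10 days. At an unadjusted p below 0.05 it was 4733 genes (17.2%), 3064 up (11.1%) and 1669 down (6.06%). The split depended on scaling, with 47.5% of the calls upward here, 18.2% when the percentile was taken over probes above background on all arrays, 23.3% after quantile normalization and 27.6% in the authors' values. Under the main scaling the median gene had an effect of -0.12 after 1 day and -0.02 after 10 days, and a median change over rest of 0.08. Leaving out 1 heart gave from 311 calls (without 1-day stressed 1) to 1062 (without 1-day stressed 4). The count also moved widely without 10-day controls 1 (437) and 2 (354), 10-day stressed 3 (370), and 1-day controls 1 (435), 2 (380) and 3 (403). The standard error of the change over rest had a median of 0.22 and a 90th percentile of 0.52. For the noisier genes even differences of more than 2 in size could go uncalled. Examples were Sprr1a at -2.56 (adjusted p = 0.0816) and Slc4a1 at -2.09 (adjusted p = 0.0984).

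Of the 3778 genes called after 1 day, 624 (16.5%) shrank, meaning that the change over rest was called and ran against the early effect. The same 8 hearts moved this count too, to between 293 and 950. These 624 were 345 that had been higher and 279 that had been lower. Their effect after 10 days was still on the early side of 0 for 189 and on the other side for 435. Genes are picked here for a called change against the early effect, which favours late values that are low or opposite. The split is therefore partly set by the choice, and over all 3778 early genes it was 2530 and 1248. No early gene grew, and none was called on the opposite side after 10 days. Here 3 stayed, being called in the same direction at both rests: Ogg1, Dcaf12l2 and a transcript listed only by its position on chromosome 13. The other 3151 (83.4%) were unresolved: neither the late effect nor the change over rest passed the test, which does not show that they persisted or that they returned. Without the 3 marked arrays, which leaves 3 controls and 2 stressed hearts after 10 days, 401 shrank, 7 grew, 172 stayed and 13 reversed. The early call and the change over rest use the same 8 arrays of 1-day hearts, so a loss of size among early genes is partly fixed by how they were chosen.

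The effect after 10 days uses none of the 1-day arrays. It lay on the early side for 2530 of the 3778 early genes (67.0%), against 59.4% of all tested genes. At an unadjusted p below 0.05 it ran along the early effect for 453 early genes (12%) and against it for 69 (1.83%). Over all tested genes, 14% had such a late p in either direction, so a late effect was no more frequent among early genes. Array weights raised the count of 453 to 818, but also raised the number of early genes from 3778 to 5588. Across the 3778 genes the effects of both rests correlated at r = 0.41, and across all 27532 at 0.24. Genes are not independent samples and the genes of a slide share its arrays, so this is a description. Among genes changed at least 2-fold after 1 day, 188 of 378 higher genes shrank (49.7%), with a median effect of 1.43 after 1 day and 0.10 after 10 days. Of the 149 genes lower by as much, 16 shrank (10.7%), and the median lay 1.20 and 0.19 below the controls.

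**Figure D1:**
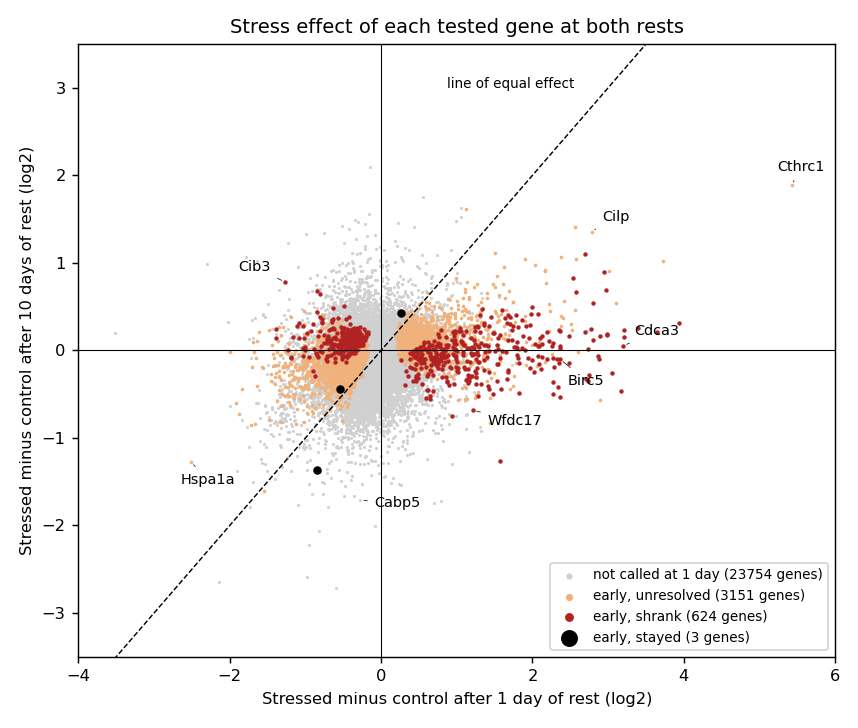
Each point is a tested gene, placed by its stressed minus control difference (log2) after 1 day of rest on the horizontal axis and after 10 days on the vertical axis, and coloured by its class. The 624 genes that shrank lie near the horizontal zero line, far from the dashed line of equal effect. Their class was defined by a called change over rest, so this position is partly set by the choice. The 3 black points that stayed have early effects of 0.26, -0.84 and -0.55.

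Genes picked on other hearts also had smaller median effects after 10 days, but most of the lower ones changed side. Of the 213 genes higher in mice stressed for 10 days and rested for 1, which share no array with the 16 hearts, the median effect was 0.63 after 5 days of stress with 1 day of rest and 0.16 with 10 days. For 61 of the 213 (28.6%) the change over rest was called downward. The 99 genes lower in those mice had medians of -0.35 and 0.08, and 29 (29.3%) were called upward. After 10 days 161 of the 213 (75.6%) but only 34 of the 99 (34.3%) lay on the side of their effect in those mice. Of the early genes, 1000 of 1458 higher (68.6%) and 1530 of 2320 lower (65.9%) kept their side. No gene of either set was called in the other direction.

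Gene lists differed in how far they moved, and the plot of list medians shows it. For each list the number of members tested is given, then the calls. Of all genes, 5.3% were called higher and 8.43% lower after 1 day. The change over rest was called upward for 1.18% and downward for 1.31%, and after 10 days 46.1% were measured higher.

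**Figure D2:**
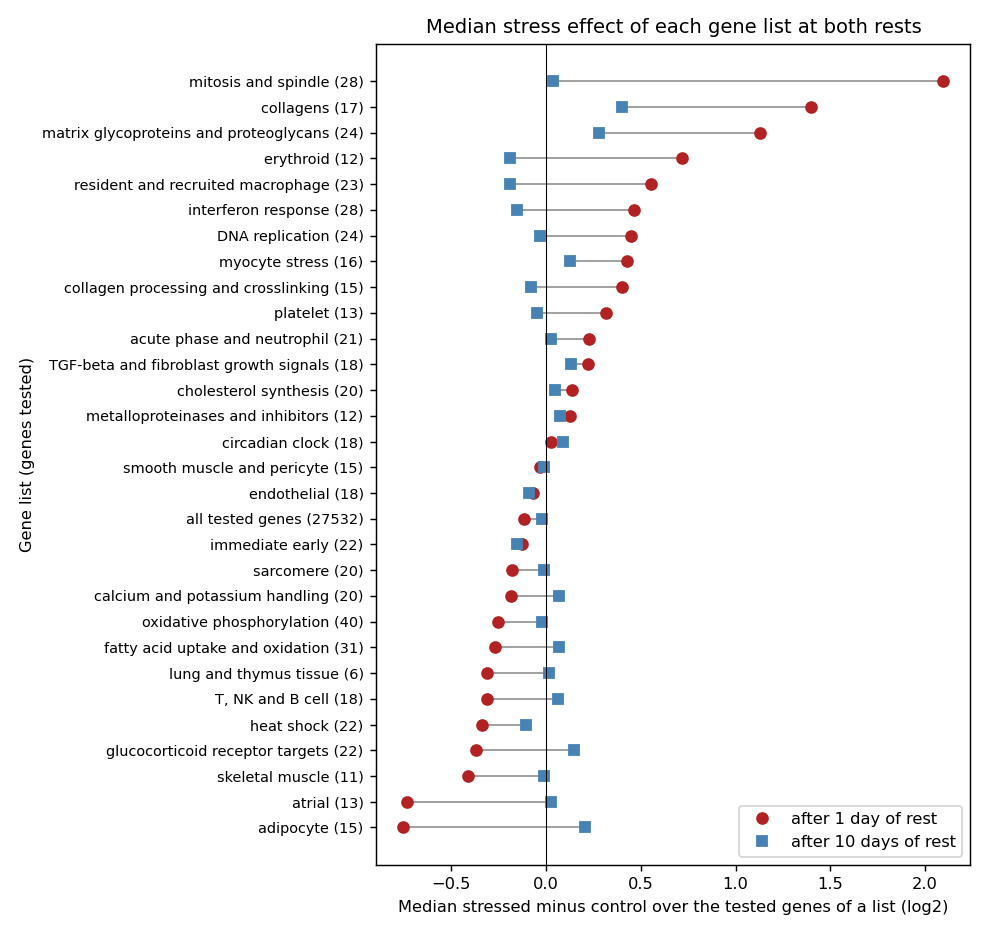
For each gene list (number of tested genes in brackets), the circle is the median stressed minus control difference (log2) after 1 day of rest and the square that after 10 days. The mitosis list moves from 2.10 to 0.03 and the collagen list from 1.40 to 0.40. With normexp background correction the 1-day medians are 0.92 and 1.33, so the order of these lists depends on how background is handled.

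Of the mitosis and spindle genes, most were called higher after 1 day and most shrank. Of 28 tested, 23 were called higher after 1 day and none lower. The change over rest was called downward for 22 of the 28, where 1.31% of all genes were. After 10 days none was called and 16 of 28 were measured higher, against 46.1% of all genes. The list mean of the 4 stressed hearts lay 1.65 to 2.26 above their own controls after 1 day and between -0.11 and 0.17 after 10 days. The count of 22 was 19 to 22 with any 1 heart left out and 16 to 23 under the other settings. For 6 of the 28 no 1-day control was above background, so their size there is a lower bound. Of the 22 measured in all 4 groups, 18 were called higher after 1 day and 18 had a called downward change, with medians of 2.05 and 0.02. Sizes also depended on the background step: over all 28 the 1-day median was 2.10 here, 1.39 in the authors' values and 0.92 with normexp, where the collagen list gave 1.40, 1.35 and 1.33.

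Birc5 (survivin, a subunit of the complex that corrects chromosome attachment in mitosis; probe on mm9 chromosome 11, 117716978 to 117717037) showed this in every heart. Its levels in the 1-day controls were -1.29, -1.25, -1.25 and -1.33, and in the 1-day stressed hearts 1.46, 0.92, 1.14 and 0.81. In the 10-day controls they were -0.68, -0.95, -0.82 and -0.74, and in the 10-day stressed hearts -0.86, -0.94, -0.83 and -0.96. All stressed hearts stood above all controls after 1 day, and the arms overlapped after 10 days. After 1 day the arms were apart, in either direction, for 22.3% of all genes. The effect was 2.37 and then -0.10, and the change over rest was -2.47 (SE 0.29, 95% interval -3.06 to -1.88, limma adjusted p = 3.63e-05).

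Mki67, the proliferation marker Ki-67, had levels of -0.83, -0.98, -0.76 and -0.92 in 1-day controls and 1.78, 1.27, 1.39 and 1.15 in 1-day stressed hearts. The 10-day controls read -0.42, -0.47, -0.45 and -0.50 and stressed hearts -0.75, -0.44, -0.24 and -0.78. Again the arms were apart after 1 day and mixed after 10. The resulting change over rest was -2.36 (SE 0.35, adjusted p = 0.000611). Cdca3, which helps trigger mitotic entry, went from an effect of 3.20 to 0.05 (change over rest -3.15, SE 0.40, adjusted p = 0.000135), although only 2 of its 4 1-day controls were well above background. Pimreg, a regulator of the step from metaphase to anaphase, went from 3.22 to 0.23, with 1 of 4 1-day controls above background.

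Several cell cycle genes were not above background in any 1-day control and have only a lower bound there. After 1 day the mitotic kinase gene Pbk stood at least 3.24-fold higher, Spag5 (astrin, at spindle poles) at least 3.07-fold, Ska1, which ties microtubules to kinetochores, at least 2.99-fold, Cenph (centromere) at least 2.31-fold and Bub1, a spindle checkpoint kinase, at least 1.79-fold. Ska1 was the early mitosis gene that stayed unresolved.

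Promoters are shown for 4 members of this list because cell cycle genes of the mitotic phase are known to share a promoter element, the CHR, often placed near CCAAT boxes bound by NF-Y. Each line is the 120 bases before the transcription start from RefSeq (build GRCm38.p6), read 5′ to 3′ on the gene's strand. Capitals mark TTTGAA or TTCGAA, the letters of the CHR, and CCAAT, on either strand, so that TTCAAA and ATTGG are the same letters read from the other strand.
Cdc20, chr4:118437344-118437463, minus strand: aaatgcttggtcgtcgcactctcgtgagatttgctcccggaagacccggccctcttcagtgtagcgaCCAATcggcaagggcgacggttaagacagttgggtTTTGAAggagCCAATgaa
Kif11, chr19:37376262-37376381, plus strand: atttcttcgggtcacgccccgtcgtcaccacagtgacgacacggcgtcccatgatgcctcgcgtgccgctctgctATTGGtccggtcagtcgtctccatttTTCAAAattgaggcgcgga
Top2a, chr11:99024190-99024309, minus strand: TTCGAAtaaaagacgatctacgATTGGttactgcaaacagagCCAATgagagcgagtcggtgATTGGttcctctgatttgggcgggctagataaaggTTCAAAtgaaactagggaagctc
Ube2c, chr2:164769809-164769928, plus strand: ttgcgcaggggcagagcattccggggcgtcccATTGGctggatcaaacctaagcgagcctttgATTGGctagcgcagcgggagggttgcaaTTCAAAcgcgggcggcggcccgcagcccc

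In RefSeq windows from 250 bases before to 50 after the start, TTTGAA or TTCGAA stood in 19 of the 24 list members that had a window (79.2%), against 21.7% of 27025 genes. CCAAT stood in 20 of 24 (83.3%), against 41.1%. On the DNA replication list the shares were 4 of 19 (21.1%) and 13 of 19 (68.4%). On the collagen list, 3 of 15 windows held TTTGAA or TTCGAA and 7 of 15 (46.7%) held CCAAT. All 4 promoters shown hold TTTGAA or TTCGAA before the start, which is not so for the whole list. In Aurka, Cdca3, Cenpa and Plk1, among others, these letters stand only after the start. A match is a run of letters, and no binding was measured. The change over rest was called for all 4 genes shown. Cdc20, an activator of the anaphase-promoting complex, went from 1.57 to 0.18 (change over rest -1.39, SE 0.24, adjusted p = 0.00258). Top2a, the topoisomerase that untangles sister chromatids, went from 2.73 to 0.02 (adjusted p = 0.00696). Ube2c, the complex's ubiquitin-conjugating enzyme, went from 1.76 to 0.04 (adjusted p = 0.0183), and Kif11, the motor that separates spindle poles, changed over rest with an adjusted p of 0.0235 and no 1-day control above background. Cdc20, Kif11 and Ube2c were chosen for display after their values were seen. Kif11 lost its call under 8 of 29 alternatives, 4 of them the omission of 10-day control 2 or 4, 1-day control 3 or 1-day stressed 1.

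DNA replication genes had a smaller list median. Of 24 tested, 15 were called higher after 1 day, and the change over rest was called downward for 11. The list median went from 0.45 to -0.03, and the stressed hearts' list means from 0.45 to 0.74 down to between -0.13 and -0.01. Without 1-day stressed 1 the count of 11 was 7. Tk1 (thymidine kinase, which supplies a DNA building block) read -1.30, -1.39, -1.19 and -1.37 in 1-day controls and 0.16, -0.01, 0.10 and -0.02 in 1-day stressed hearts. With 10 days of rest, controls read -1.23, -1.19, -1.39 and -1.32 and stressed hearts -1.45, -1.42, -1.33 and -1.37. The early gap of more than 1 in every heart was gone, and the 10-day arms overlapped. Its change over rest was -1.47 (SE 0.20, adjusted p = 0.000165).

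Mcm5, part of the helicase that opens DNA for replication, went from 1.36 to -0.22 (change over rest -1.58, SE 0.26, adjusted p = 0.00164). Its 10-day stressed hearts, at -1.26, -1.30, -1.26 and -1.49, all lay below their controls, at -1.11, -1.08, -1.20 and -1.03, but the 10-day effect was not called (adjusted p = 0.614). Arms were apart after 10 days for 5.84% of all genes. Rrm2, a subunit of ribonucleotide reductase, went from 1.28 to 0.27 (adjusted p = 0.0137). Uhrf1, which carries DNA methylation through replication, went from 1.79 to -0.05 (adjusted p = 0.00186) at the probe used, but its second probe read -0.10 and then -0.73.

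**Figure D3:**
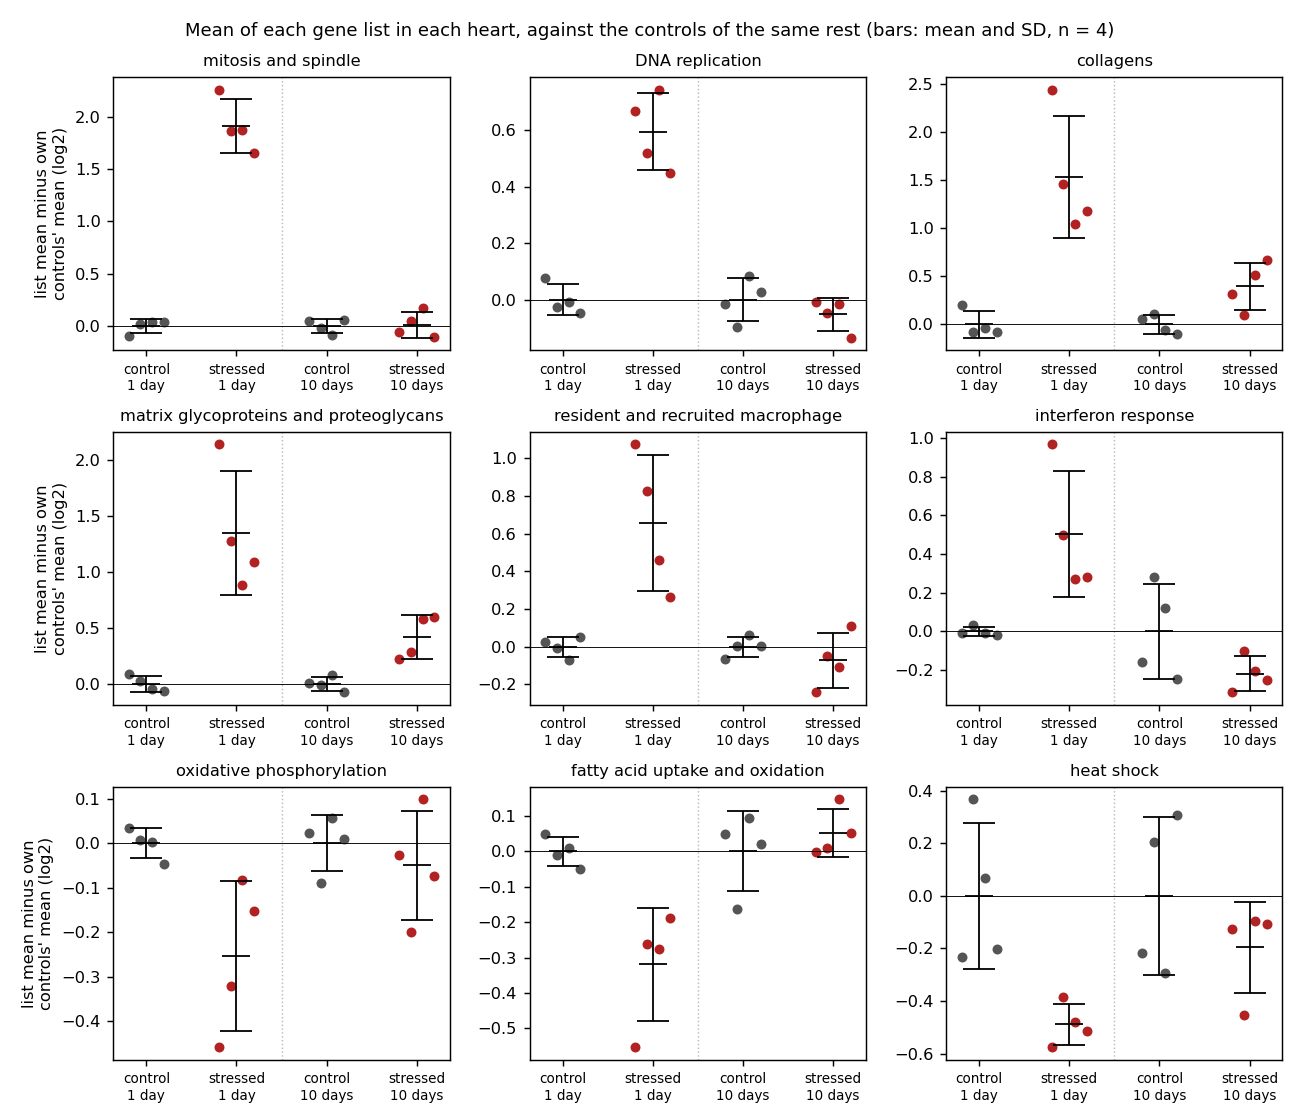
Each panel gives the mean log2 level of a gene list in each heart minus the mean of the 4 controls of the same rest, with bars for mean and SD (n = 4). Mitosis means of the stressed hearts fall from 1.65 to 2.26 after 1 day to between -0.11 and 0.17 after 10 days, whereas collagen means fall from 1.05 to 2.45 to between 0.10 and 0.67.

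Of the collagen genes, 9 of 17 shrank, and 15 were measured above the controls after 10 days. Of the 17 tested, 16 were called higher after 1 day and 9 had a called downward change over rest, where 1.31% of all genes did, among them Col1a1, Col1a2, Col3a1, Col5a1, Col6a1 and Col6a2. After 10 days none was called, but 15 of 17 were measured higher (46.1% of all genes were), 7 of them at an unadjusted p below 0.05, where 6.49% of all genes were. The median went from 1.40 to 0.40. The 4 stressed hearts' list means were 1.05 to 2.45 and then 0.10 to 0.67, with 10-day controls between -0.10 and 0.10. The count of 9 was less steady than the medians. It was 0 without the marked arrays, 1 on the 16 arrays alone, 2 or 3 without any one of 10-day controls 1 and 2, 10-day stressed 2, 1-day controls 2, 3 and 4 or 1-day stressed 1, and 5 without 1-day stressed 2. The fibroblast marker Pdgfra was above background on 16 of 16 arrays, and its part in the result was not tested.

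Col3a1, a fibrillar collagen of soft tissue and scar (probe on mm9 chromosome 1, 45405589 to 45405648), read 3.57, 3.03, 3.29 and 2.88 in 1-day controls and 7.15, 6.18, 5.55 and 5.69 in 1-day stressed hearts. By 10 days the controls read 3.55, 3.79, 3.21 and 3.40 and stressed hearts 4.05, 3.82, 4.65 and 5.02. The arms did not overlap at either rest, but after 10 days stressed 2 lay only just above control 2. The effect was 2.95 and then 0.90 (adjusted p = 0.206), with a change over rest of -2.05 (SE 0.46, 95% interval -2.99 to -1.12, adjusted p = 0.0146).

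Col1a1, the main fibrillar collagen chain, went from 2.53 to 0.83 (change over rest -1.71, SE 0.43, adjusted p = 0.0314), again without overlap at either rest. That call was lost without any one of 10-day controls 1 and 2, 10-day stressed 2, 1-day controls 2, 3 and 4, or 1-day stressed 1 and 2. Col12a1, a collagen that sits on fibril surfaces, went from 2.03 to 0.97, and its change over rest of -1.06 was not called (95% interval -2.25 to 0.14, adjusted p = 0.357). Col8a1, a short-chain collagen, had a change over rest of -1.56 (adjusted p = 0.045) that was lost under 18 of 29 alternatives.

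Of 24 matrix glycoproteins and proteoglycans tested, 18 were called higher after 1 day and 7 had a called downward change over rest: Fbn1, Emilin1, Vcan, Lum, Fbln2, Mfap5 and Sparc. After 10 days 21 of 24 were measured higher, where 46.1% of all genes were. Of these, 8 were at an unadjusted p below 0.05, against 6.49% of all genes, and the list median went from 1.13 to 0.28. The count of 7 was 1 on the 16 arrays alone, 2 without the marked arrays, 3 with the replicate block or without 1-day stressed 1, and 4 without any one of 10-day controls 1 and 2, 10-day stressed 3 or 1-day control 3.

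Cilp, a matrix protein of fibroblasts (probe on mm9 chromosome 9, 65128007 to 65128066), had the largest 10-day effect along the early direction among early genes with an official symbol that changed at least 2-fold and were measured in all 4 groups. It read -0.25, -0.25, -0.33 and -0.21 in 1-day controls and 3.64, 2.23, 1.91 and 2.31 in 1-day stressed hearts. The 10-day controls read -0.79, -0.28, -0.35 and -0.65 and stressed hearts 0.35, 0.36, 1.36 and 1.30. Every stressed heart was above every control at both rests. The effect was 2.78 and then 1.36 (adjusted p = 0.0814), and the change over rest of -1.42 (SE 0.46, 95% interval -2.36 to -0.49) was not called (adjusted p = 0.0913).

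Thbs4, a thrombospondin of injured muscle, went from 2.38 to 1.07 with a change over rest of -1.32 that was not called (adjusted p = 0.0892). Postn (periostin), made by activated fibroblasts, went from 3.02 to 0.91 (change -2.11, adjusted p = 0.0538). Cthrc1, another gene of activated fibroblasts, was above background in 0 of 4 controls and 4 of 4 stressed hearts after 1 day, where it was at least 10.1-fold higher. After 10 days it was above background in 0 of 4 controls and 2 of 4 stressed hearts, and was at least 1.24-fold higher.

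**Figure D4:**
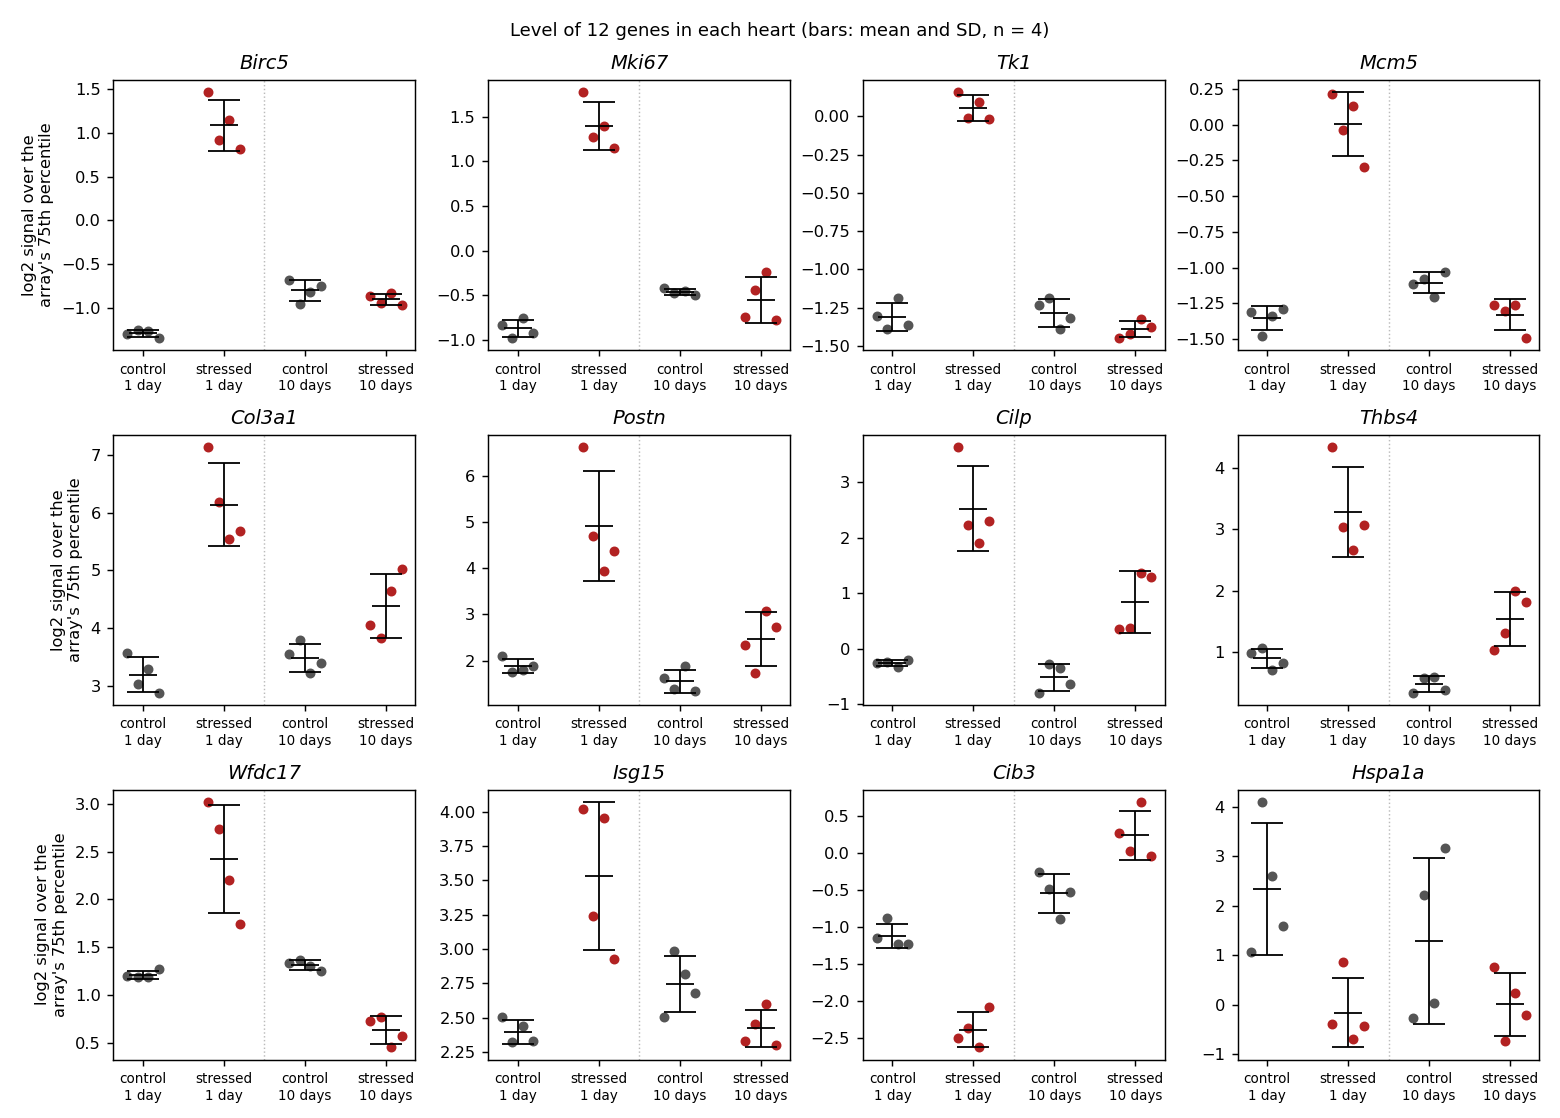
Levels of 12 genes in each of the 16 hearts, as log2 signal relative to the array's 75th percentile, with bars for mean and SD (n = 4 per group). Birc5 and Tk1 separate the arms only after 1 day, Cilp separates them at both rests, and Cib3 and Wfdc17 change sides.

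Enzymes and regulators of the matrix gave fewer calls. Of 15 collagen processing and crosslinking genes, 7 were called higher and 1 lower after 1 day, and 4 had a called downward change over rest. These were Loxl2 and Loxl1, which crosslink collagen, Adamts2, which trims its precursor, and Pcolce, which aids such trimming. Loxl2 went from 1.99 to 0.50 (adjusted p = 0.00745), with 1 of its 4 probes unmoved, Adamts2 from 1.36 to 0.31 (adjusted p = 0.016), Pcolce from 0.75 to -0.20 (adjusted p = 0.0212) and Loxl1 from 1.12 to 0.22 (adjusted p = 0.0426). The call of Loxl1 was lost under 17 of 29 alternatives and that of Pcolce without 10-day control 2 or 1-day stressed 1. The count of 4 was 2 without 10-day control 2 or without the marked arrays, and 1 on the 16 arrays alone. Lox itself was at least 2.79-fold higher after 1 day.

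Timp1, an inhibitor of matrix-degrading proteases, was the one gene of 12 in its list with a called change over rest. It read 0.05, -0.17, -0.05 and -0.35 in 1-day controls and 3.71, 2.87, 2.56 and 1.53 in 1-day stressed hearts, then -0.24, 0.18, 0.18 and 0.02 in 10-day controls and 0.22, 0.05, 0.47 and 1.54 in 10-day stressed hearts. After 10 days only stressed 4 stood far from the controls. The difference between rests was -2.26 (SE 0.46, adjusted p = 0.00772). Timp4, its relative in heart muscle, had the opposite early sign, -1.44, then 0.06, and its change of 1.50 was not called (adjusted p = 0.101). Of 18 TGF-beta and fibroblast growth signals, only Tgfb2, a ligand, had a called change over rest (0.99 to 0.08, adjusted p = 0.0356). It lost the call under 14 of 29 alternatives, and 1.31% of all genes had a called downward change. Over the 18 genes the medians were 0.22 and 0.13, with a median change over rest of -0.04. After 10 days 16 of 18 were measured higher, against 46.1% of all genes.

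Of 23 macrophage genes tested, 15 were called higher after 1 day and 10 had a called downward change over rest. After 10 days none was called. At that time 6 were measured higher, against 46.1% of all genes, and the median went from 0.56 to -0.19. At an unadjusted p below 0.05, 2 were higher and 3 lower, where 6.49% and 7.47% of all genes were. Stressed hearts' list means were 0.27 to 1.07 and then -0.24 to 0.11. The count of 10 was 7 to 11 with 1 heart left out and 4 both without the marked arrays and on the 16 arrays alone.

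Trem2, a lipid-sensing receptor of macrophages, went from 1.72 to 0.12 (change over rest -1.61, SE 0.33, adjusted p = 0.00881). Cd68, a lysosomal protein of macrophages, went from 1.17 to -0.14 (-1.31, SE 0.29, adjusted p = 0.0132). Csf1r, the receptor that keeps macrophages alive, went from 0.33 to -0.24 (-0.56, adjusted p = 0.0198) at the probe used. A second Csf1r probe read 0.47 and then -0.20, but another showed no early rise, at 0.0038 and then -0.24. Cd68 and Csf1r were named after their values were seen. Ccr2, the receptor by which monocytes enter tissue, went from 1.50 to 1.11 with a change of -0.39 (95% interval -1.70 to 0.92, adjusted p = 0.797). Its 10-day effect lay mainly in 1 heart, stressed 4 at 0.62, where the other stressed hearts read -1.92, -2.38 and -1.82 and the controls -2.09, -2.67, -2.22 and -2.96.

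Wfdc17, a secreted protein that dampens macrophage activation, changed sides. It read 1.20, 1.19, 1.19 and 1.27 in 1-day controls and 3.02, 2.73, 2.21 and 1.75 in 1-day stressed hearts. By 10 days the controls read 1.34, 1.37, 1.31 and 1.25 and stressed hearts 0.73, 0.78, 0.46 and 0.58. Every stressed heart was above its controls after 1 day and below them after 10 days. The effect was 1.22 and then -0.68, which was not called on its own (adjusted p = 0.117), and the change over rest was -1.90 (SE 0.27, 95% interval -2.45 to -1.35, adjusted p = 0.000335).

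Of 28 interferon response genes tested, 13 were called higher and 1 lower after 1 day, and 6 had a called downward change over rest: Isg15, Ifit3, Oasl2, Ifi44, Oas1a and Mx2, all antiviral effectors. After 10 days 3 of 28 were measured higher, against 46.1% of all genes, and the median went from 0.46 to -0.15. The 10-day stressed hearts' list means ran from -0.32 to -0.10 and those of their controls from -0.24 to 0.28. Stressed 1 at -0.32 and stressed 4 at -0.25 lay below every control. The count of 6 was 3 on the 16 arrays alone and without 10-day control 2 or 1-day stressed 1, 4 without 10-day stressed 3 and 10 without 1-day stressed 4.

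Isg15, a ubiquitin-like protein induced by interferon, read 2.50, 2.32, 2.44 and 2.33 in 1-day controls and 4.02, 3.24, 3.95 and 2.92 in 1-day stressed hearts. The 10-day controls read 2.50, 2.98, 2.82 and 2.68 and stressed hearts 2.33, 2.46, 2.60 and 2.30. The arms were apart after 1 day and overlapped after 10. The change over rest was -1.46 (SE 0.29, adjusted p = 0.00674). Mx2 was not called after 1 day (0.35, adjusted p = 0.207), and its 10-day stressed hearts all lay below their controls (-0.76, adjusted p = 0.0836). Its change over rest was -1.11 (SE 0.26, adjusted p = 0.0217). Mx2 was named after its values were seen, and the call was lost without 10-day control 2, 10-day stressed 3 or 1-day stressed 1.

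Of 21 acute phase and neutrophil genes, 7 were called higher after 1 day and 2 had a called downward change over rest. Serpina3n, a secreted protease inhibitor of the acute phase, went from 2.48 to 0.16 (-2.32, SE 0.35, adjusted p = 0.000694). Lcn2, an iron-trapping protein of neutrophils and inflamed tissue, went from 1.87 to 0.35 (-1.51, adjusted p = 0.00856). Red cell genes (12 tested, 4 called higher after 1 day) had medians of 0.72 and -0.19 and no called change over rest. Of 18 T, NK and B cell genes tested, 3 were called lower after 1 day, where 8.43% of all genes were. Their list medians were -0.31 and 0.06, and none had a called change over rest. Red cell RNA was uneven between hearts beside these lists: red cell list means ran from 0.30 to 2.06 in 1-day stressed hearts and from -0.74 to 0.32 in 10-day stressed hearts. Its part in the inflammatory results was not tested.

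Heart muscle lists gave few called changes over rest. In the myocyte stress list (16 tested, 6 called higher and 1 lower after 1 day) only Acta1 had a called change over rest. The list medians were 0.43 and 0.12, and after 10 days 13 of 16 were measured higher, against 46.1% of all genes. Sprr1a had a larger change than Acta1, -2.56, that was not called (adjusted p = 0.0816) but was called under 2 of 29 alternatives. Acta1, the skeletal actin of the fetal heart programme, went from 1.74 to 0.28 (-1.46, SE 0.39, adjusted p = 0.0429), a call lost under 15 of 29 alternatives. Myh7, the fetal ventricular myosin, did not follow it. It read 5.22, 5.61, 5.13 and 5.19 in 1-day controls and 6.67, 6.11, 5.52 and 7.08 in 1-day stressed hearts, then 4.45, 4.51, 4.40 and 5.02 in 10-day controls and 5.48, 5.82, 7.10 and 6.46 in 10-day stressed hearts. Stressed hearts lay above all controls after 10 days, and after 1 day all but stressed 3 did. The effect was 1.05 (adjusted p = 0.0681) and then 1.62 (adjusted p = 0.0814), and the change over rest of 0.57 had a 95% interval of -0.55 to 1.69 (adjusted p = 0.635). Myh7 was named after its values were seen. The natriuretic peptides Nppa and Nppb had changes over rest of 0.10 (adjusted p = 0.918) and -0.47 (adjusted p = 0.681).

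Among 20 sarcomere genes, 3 were called lower after 1 day, where 8.43% of all genes were. For 1, Myom2, the change over rest was called upward, as it was for 1.18% of all genes. Myom2, a protein of the M-band that ties thick filaments together, read 8.56, 8.57, 8.44 and 8.46 in 1-day controls and 7.77, 7.81, 7.59 and 8.09 in 1-day stressed hearts. With 10 days of rest, controls read 8.18, 7.96, 8.34 and 8.33 and stressed hearts 8.44, 8.45, 8.56 and 8.30. The early deficit in all 4 hearts was absent after 10 days, when the arms overlapped. The resulting change over rest was 0.93 (SE 0.14, adjusted p = 0.000763).

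Energy metabolism lists had medians below 0 after 1 day, by an amount that depended on scaling. Of 40 oxidative phosphorylation genes, 17 were called lower after 1 day, where 8.43% of all genes were. Ndufs1 and Ndufa10, 2 complex I subunits, had a called upward change over rest, where 1.18% of all genes did. The median went from -0.25 to -0.02, where the median of all genes was -0.12 after 1 day. After quantile normalization the 1-day median of the list was -0.04, and in the authors' values -0.06. Of 31 genes of fatty acid uptake and oxidation, 13 were called lower after 1 day and 2 had a called upward change, with medians of -0.27 and 0.07 (-0.18 after 1 day with quantile normalization). Those 2 were Cd36, which takes up fatty acids, and Acadm, which starts their oxidation. Quantile normalization left no call in either list, and single omissions gave 1 to 5 in each.

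Ndufs1 went from -0.46 to 0.03 (change over rest 0.49, SE 0.11, adjusted p = 0.0156), and Ndufa10 from -0.34 to 0.19 (0.53, adjusted p = 0.0358). Cd36 went from -0.31 to 0.22 (0.53, SE 0.12, adjusted p = 0.016). Its stressed hearts lay below all controls after 1 day and above all controls after 10 days. Acadm went from -0.39 to 0.12 (0.51, adjusted p = 0.0442). The calls of Acadm and Ndufa10 were lost under 21 and 18 of 29 alternatives. Hadha, of the trifunctional protein of fatty acid oxidation, went from -0.51 to -0.02 (adjusted p = 0.0974) and Ppara, the receptor that drives these genes, from -0.51 to 0.15 (adjusted p = 0.0699). Cox7a1, a muscle subunit of cytochrome oxidase, went from -0.50 to -0.05 (adjusted p = 0.0617).

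Of 22 heat shock genes tested, 9 were called lower after 1 day, where 8.43% of all genes were. After 10 days none was called, and 1 was lower at an unadjusted p below 0.05, where 7.47% of all genes were. The measured effect of the 9 was below 0 after 10 days, with medians over the 9 of -0.49 and -0.35. The stressed hearts' list means after 10 days, -0.45 to -0.10, overlapped those of their controls, -0.29 to 0.31. No change over rest was called, and 3 of 22 were upward at an unadjusted p below 0.05, near the 11.1% of all genes. Without the marked arrays the median over the list after 10 days was 0.06 instead of -0.11. Hspa1a, the inducible Hsp70, was the most variable. It read 1.07, 4.10, 2.60 and 1.59 in 1-day controls and -0.39, 0.86, -0.70 and -0.44 in 1-day stressed hearts, then -0.28, 2.22, 0.03 and 3.17 in 10-day controls and 0.75, -0.74, 0.23 and -0.21 in 10-day stressed hearts. The controls spread over more than 3 at both rests, and the 10-day arms overlapped. The effect was -2.51 and then -1.28, and the change of 1.23 had an interval of -0.83 to 3.30 (adjusted p = 0.563).

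Glucocorticoid receptor targets (22 tested) had medians of -0.37 and 0.15. After 1 day 2 of the 22 were called higher, where 5.3% of all genes were, and 2 lower, where 8.43% were, and the change over rest was called upward for Ddit4 and Glul and downward for Lcn2. Ddit4, an inhibitor of mTOR signalling, went from -1.11 to 0.28 (1.39, SE 0.35, adjusted p = 0.0304), a call lost under 12 of 29 alternatives. Glul, glutamine synthetase, went from -0.38 to 0.31 (0.69, adjusted p = 0.0472), lost under 19 of 29. Leaving out single hearts took the 2 upward calls to between 0 and 3. Fkbp5, a textbook target, went from -0.33 to 0.48, and its change of 0.81 was not called (adjusted p = 0.221).

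Adipocyte genes (15 tested) had medians of -0.75 and 0.20, and Plin4 and Lpl had called upward changes. Plin4, a lipid droplet protein also made in muscle, went from -0.75 to 0.08 (0.83, SE 0.17, adjusted p = 0.00856), and Lpl, which frees fatty acids from blood lipids, changed by 0.54 (adjusted p = 0.0358), a call lost under 17 of 29 alternatives. The list mean in single hearts ran from -2.22 to 0.03 after 1 day and from -0.61 to 1.65 after 10 days, and the median after 10 days was -0.21 without the marked arrays. The atrial list (13 tested) had medians of -0.74 and 0.03, with Kcnj3, a potassium channel of the atria, called upward (0.87, adjusted p = 0.0303, lost under 13 of 29 alternatives). How much fat and atrial tissue each sample held was not tested.

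Most of the largest upward changes over rest lay outside these lists. Cib3, a calcium-binding protein (probe on mm9 chromosome 8, 74729463 to 74729522), read -1.15, -0.87, -1.23 and -1.23 in 1-day controls and -2.50, -2.36, -2.62 and -2.07 in 1-day stressed hearts. By 10 days the controls read -0.26, -0.49, -0.89 and -0.53 and stressed hearts 0.27, 0.03, 0.69 and -0.03. Every stressed heart lay below its controls after 1 day and above them after 10 days. The effect was -1.27 and then 0.78 (adjusted p = 0.0836), and the change over rest 2.05 (SE 0.27, 95% interval 1.49 to 2.61, adjusted p = 0.000165). Gnb3, a G protein subunit, likewise went from -0.81 to 0.65 (1.45, SE 0.27, adjusted p = 0.00456), without overlap at either rest. The carboxylesterase Ces1d changed by 1.16 (adjusted p = 0.00392).

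**Figure D5:**
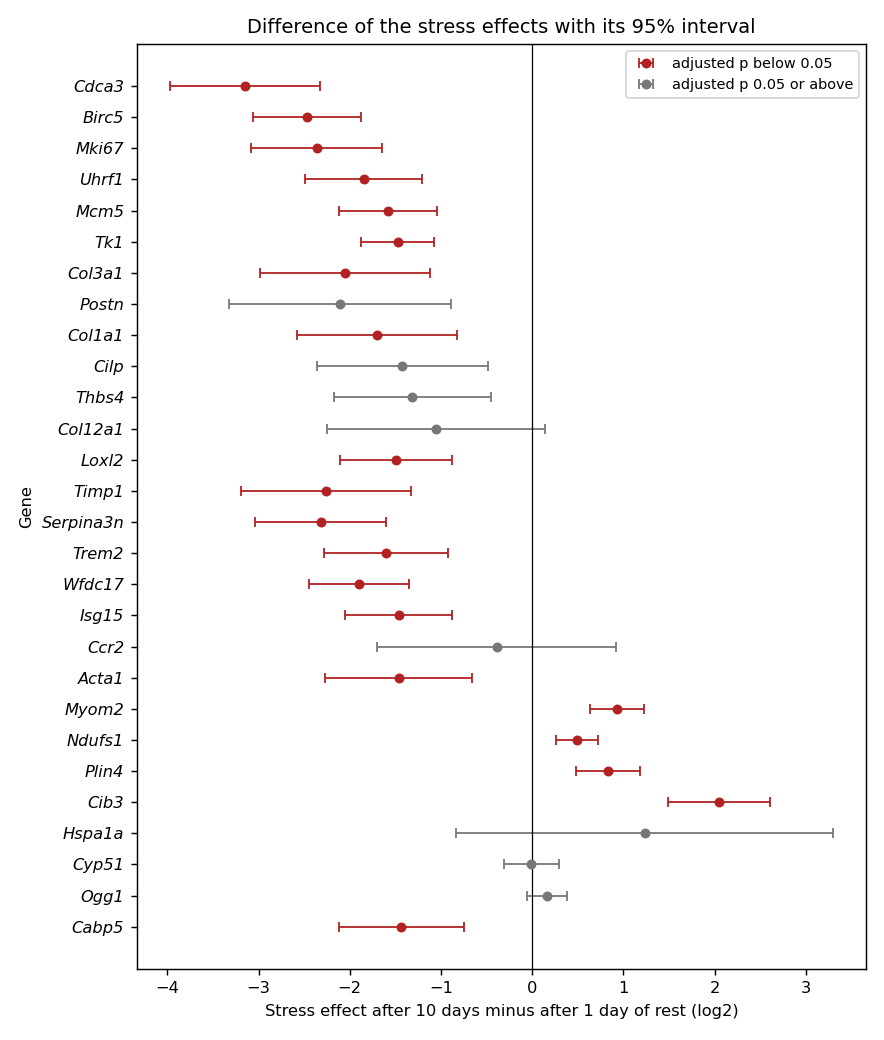
The stress effect after 10 days minus that after 1 day (log2) for 28 genes, with its 95% interval, in red where the limma adjusted p was below 0.05. Cdca3 at -3.15 and Birc5 at -2.47 have intervals far from 0, the intervals of Cyp51 and Ogg1 span 0, and Cib3 lies at 2.05.

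The 3 early genes called again after 10 days were 0 to 109 with 1 heart left out (109 without 10-day stressed 2) and 172 without the marked arrays. Ogg1, which removes oxidised guanine from DNA, read -0.31, -0.49, -0.59 and -0.56 in 1-day controls and -0.19, -0.36, -0.21 and -0.13 in 1-day stressed hearts. The 10-day controls read -1.12, -1.12, -0.99 and -1.06 and stressed hearts -0.58, -0.65, -0.69 and -0.69. The arms overlapped after 1 day and were apart after 10 days. The effect was 0.26 and then 0.42 (adjusted p = 0.0236), with a change of 0.16 (95% interval -0.06 to 0.38), and the late call was lost under 6 of 29 alternatives. Dcaf12l2, a little studied gene on the X chromosome, went from -0.84 to -1.36 (adjusted p = 0.0493), a late call lost under 20 of 29 alternatives, where the adjusted p reached 0.243, and its other probe read 0.46 and then -0.22. Cyp51, an enzyme of cholesterol synthesis, had an effect of 0.48 at both rests (adjusted p = 0.0671 after 10 days), with arms apart both times and an interval of -0.31 to 0.29 for the change.

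Changes that were not called after 1 day also appeared. Of the 686 genes with a called change over rest, 62 were not early genes, 47 upward and 15 downward. Cabp5, a calcium-binding protein known from the retina, was at -0.27 after 1 day. Its 10-day controls read 6.17, 6.48, 6.58 and 6.18 and the 10-day stressed hearts 4.29, 3.91, 4.85 and 5.54, all below the controls. The effect after 10 days was -1.71 (adjusted p = 0.00129) and the change over rest -1.44 (SE 0.33, adjusted p = 0.0191). Txlnb, a muscle protein of the taxilin family, went from -0.24 to 0.34 (0.58, SE 0.12, adjusted p = 0.0101), and Ank, a pyrophosphate transporter, from -0.22 to 0.44 (0.66, adjusted p = 0.0175). Cnr2, the cannabinoid receptor of immune cells, went from 0.10 to -1.09 (-1.19, adjusted p = 0.033), a call lost under 15 of 29 alternatives.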

How the data were processed

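Heart RNA of single mice was labelled with Cy3 and hybridised to 1-colour Agilent arrays. The deposited scanner files hold intensity per spot, detrended and background-subtracted by Feature Extraction 10.7.3.1 per the file headers, and other values, namely deposited flags of 0 or 1 per spot. The authors' deposited table holds log2 values and served as an alternative. Levels are the log2 of the processed signal over the array's own 75th percentile. Outlier spots (5470) were left out. Probes well above background on at least 3 of 4 arrays of a group were kept, and the brightest of a gene's probes was used, which gave 27532 genes. Probes were named by RefSeq accession (26413), through another probe (574) or by the array's own name (28694). Probe positions come from the array design (mm9).

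limma 3.58.1 in R 4.3.3 fitted the 8 group means of the series over all 32 arrays (24 residual degrees of freedom). Tests are two-sided, with Benjamini-Hochberg adjustment over 27532 genes. Where no array of a group was above background, the text gives "at least N-fold", the brighter group's mean over the background level. No label says that the mice of a group came from separate cages or batches. The precision is limited by 4 arrays per group.

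The comparison, its gene lists and the rule for naming genes were chosen with earlier results of these data known. The rule took the largest called changes over rest in each direction, the early 2-fold genes with the largest late effects, late calls, up to 4 members of each of 29 lists, and Fkbp5, Per1, Nppa and Nppb. Only some of these are named, and a few genes are not reported here. Members of lists with few calls were also named after their calls were seen. Alternatives were quantile normalization, normexp background, the authors' values, another percentile, other filters, the mean of a gene's probes, the 16 arrays alone, a replicate block, slide row, array weights, a robust fit, and leaving out the marked arrays or each array in turn. The fit was tested on simulated data.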

Additional observations from a re-analysis of the deposited data

Results flagged for a closer look

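In 26 of 424 groups of 4 hearts, taken over the named genes, 1 heart stood apart from the other 3 by more than Dixon's critical value of 0.829 of the range. Chance alone flags about 1 in 20 groups. This was 10-day control 3 for Scgb1c1 at 2.13. This was 10-day control 4 for Spag5 at -5.10 and Cox4i1 at 9.54. This was 10-day stressed 1 for Oas1a at 0.71. This was 10-day stressed 2 for Plin4 at 6.43. This was 10-day stressed 3 for Ska1 at -2.67 and Scgb1c1 at 3.47. This was 10-day stressed 4 for Pimreg at -3.72. This was 1-day control 1 for Fkbp5 at 3.16. This was 1-day control 2 for Col12a1 at -3.24, Tgfb2 at 0.78, Trem2 at -0.71 and S100a8 at -4.80. This was 1-day control 4 for Wfdc17 at 1.27 and Mmp14 at -2.22. The heart 1-day stressed 1 stood apart for Ccnb1 at -1.10, Loxl2 at 3.50, Cyp51 at -1.75, Fkbp5 at 2.63, Cdc20 at 0.53, Inhba at -0.21, Pcolce at 6.37 and Ifi44 at 0.63. This was 1-day stressed 3 for Ahsp at 3.07, Slc4a1 at 3.60 and Ube2c at 1.12. 

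The stress effects of the rests differed by limma's test of the change over rest for each gene that follows (effect after 10 days minus after 1 day, log2). In the list for mitosis and spindle, the change was Birc5 -2.47, Cdca3 -3.15, Mki67 -2.36, Top2a -2.71, Ccnb1 -2.75, Cdc20 -1.39 and Ube2c -1.72. At their smallest across the 29 alternatives these were Birc5 -2.09, Cdca3 -1.45, Mki67 -2.06, Top2a -0.84, Ccnb1 -1.01, Cdc20 -1.14 and Ube2c -1.28. Top2a lost its call under 1 of them, and the second Ccnb1 probe gave a change of -0.84. In the list for DNA replication, the change was Uhrf1 -1.84, Tk1 -1.47, Mcm5 -1.58 and Rrm2 -1.01. In the list for collagen processing and crosslinking, the change was Loxl2 -1.49, Adamts2 -1.05, Loxl1 -0.90 and Pcolce -0.94. In the list for interferon response, the change was Isg15 -1.46, Mx2 -1.11, Ifit3 -1.04, Oasl2 -0.88, Ifi44 -1.16 and Oas1a -1.35. In other lists it was Col3a1 -2.05, Col1a1 -1.71, Col8a1 -1.56, Timp1 -2.26, Tgfb2 -0.91, Trem2 -1.61, Cd68 -1.31, Csf1r -0.56, Serpina3n -2.32, Lcn2 -1.51, Acta1 -1.46, Myom2 0.93, Ndufs1 0.49, Ndufa10 0.53, Ddit4 1.39, Glul 0.69, Plin4 0.83, Lpl 0.54, Kcnj3 0.87, Mybpc2 -0.83, Cacna1s 0.79, Cd36 0.53 and Acadm 0.51. Outside the lists it was Pimreg -2.98, Wfdc17 -1.90, Cib3 2.05, Gnb3 1.45, Chad 1.20, Ces1d 1.16, Cabp5 -1.44, Cnr2 -1.19, Txlnb 0.58, Ank 0.66, Cntn5 1.40, Cngb3 1.24 and Scgb1c1 1.19. Pimreg was -1.23 at its smallest across the alternatives. For 11 further genes no 1-day control was above background, so the fitted differences are not measured sizes. They were Pbk -3.44, Bub1 -2.98, Kif11 -2.28, Cenph -3.62, Fanci -3.08, Neil3 -3.31, Dtl -3.05, Spag5 -3.02, Ticrr -3.03, Rad54b -2.90 and Kbtbd6 -2.83. With normexp background correction they were smaller: Pbk -0.90, Bub1 -0.55, Kif11 -0.46, Cenph -0.67, Fanci -0.51, Neil3 -0.71, Dtl -0.67, Spag5 -0.79, Ticrr -0.47, Rad54b -0.34 and Kbtbd6 -0.58, and the call held for Pbk, Neil3, Dtl and Spag5. For Cib3, Wfdc17, Gnb3 and Cd36 every stressed heart lay on one side of its controls after 1 day and on the other after 10 days. No cause was tested.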

How the results depend on the processing

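Among the 106 named genes, 68 had a called change over rest. Of these, 24 kept the call under all 29 alternatives, 44 lost it under at least 1, and none reversed. Of the 38 not called, 14 gained a call under at least 1 and 2 changed sign. Those were Ccr2, at 0.23 without the marked arrays, and Cyp51, near 0 throughout: 0.0709 after quantile normalization, 3e-04 with normexp, 0.0251 in the authors' values, 0.0472 without the marked arrays, 0.0065 with array weights and -0.083 to 0.0702 with single omissions. The cause was not tested.

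Called changes over rest (686; 326 up, 360 down) numbered 392 (155 up, 237 down) with no filter, 209 (55 up, 154 down) on the 16 arrays alone and 396 (151 up) with the replicate block. Upward calls were 113 after quantile normalization, 180 with normexp, 155 in the authors' values and 112 with the percentile over probes above background on all arrays. Single omissions gave 311 to 1062 calls, 119 to 569 upward and 192 to 493 downward. Early calls (3778) ranged with single omissions from 2177 (without 1-day stressed 1, and 2412 without 1-day control 2) to 4002. Under the other alternatives they ran from 2759 on the 16 arrays alone to 5588 with array weights, with 4202 without the marked arrays. Genes that shrank (624) were 372 with no filter, 204 on the 16 arrays alone, 368 with the replicate block and 401 without the marked arrays, and 293 to 950 with single omissions.

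Calls after 10 days (21) numbered 86 after quantile normalization, 33 in the authors' values, 9 with no filter, 9 with slide row, 3 with array weights and 1088 without the marked arrays, and 5 to 606 with single omissions (606 without 10-day stressed 2). limma called 0 on the 16 arrays alone (3225 at an unadjusted p below 0.05) and 0 with the replicate block (4058). Genes that stayed (3) were 20 after quantile normalization, 5 with normexp, 1 with no filter, 0 on the 16 arrays alone, 0 with the replicate block, 172 without the marked arrays, 1 with array weights, and 0 to 109 with single omissions. No gene grew (0 to 0 with single omissions), except 7 without the marked arrays. None reversed, except 13 without the marked arrays, 1 with the other percentile, 1 with the filter on all 4 arrays, and 0 to 6 with single omissions. Early genes with an unadjusted late p below 0.05 along the early effect (453) were 818 with array weights, out of 5588 early genes there. With single omissions they were 269 to 662, and the number of early genes also varied. Those against it (69) were 42 after quantile normalization, 38 in the authors' values, 39 on the 16 arrays alone, 133 without the marked arrays, and 43 to 112 with single omissions. Same-numbered hearts deviated together weakly (correlations of -0.27 to 0.21, 4 of 8 over 0.1), so the numbers were not taken to pair the mice. Signal over background limits genes near background, whose folds are lower bounds.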
